A study of Mus musculus with 6 samples.

Results

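The nuclear genes of the mitochondrial respiratory chain and the ATP synthase were followed in Dicer mutant and control embryonic mouse hearts. Members were taken by symbol: every probe that the platform annotation lists with 1 gene whose symbol begins with Nduf, Uqcr, Cox4 to Cox8 or Atp5, or is Sdha, Sdhb, Sdhc or Sdhd, without the muscle isoforms Cox6a2, Cox7a1 and Cox8b. The rule found 67 genes on 75 probes, of 21676 probes listed with 1 gene, and it used no measured value. Of these, 65 genes had a probe that exceeded background on 3 or more arrays of the 6 and were tested, each by its brightest probe. Uqcrc2, a core protein of complex III, and Ndufaf8, a complex I assembly factor, were at background on all 6 arrays. The tested genes comprise 30 of complex I, 3 of complex II, 5 of complex III, 10 of complex IV, 11 of the ATP synthase and 6 assembly factors that the Nduf prefix also catches. Cox4i1, Ndufa4, Cox6b2, Cox7a2l, Cox8a, Cox8c and Sdhd are not analysed here. Ndufs5-ps is the symbol of a pseudogene, whose probe may also bind transcripts of its parent gene, so its values are uncertain. Ndufa4l2, a paralogue of Ndufa4, was counted with complex IV, where Ndufa4 is now placed.

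The respiratory chain passes electrons from NADH, through complex I, and from succinate, through complex II, to ubiquinone, then through complex III and cytochrome c to complex IV, which reduces oxygen. Complexes I, III and IV pump protons out of the mitochondrial matrix, and the ATP synthase makes ATP from their return. Most subunits are encoded in the nucleus and a few in mitochondrial DNA, and in the embryonic heart the chain matures as cardiomyocytes turn from glycolysis towards oxidative metabolism.

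RNA came from hearts dissected at embryonic day 11.5 and was hybridised, biotin-labelled, to 6 single-colour CodeLink arrays. The 3 mutant hearts had Dicer inactivated by a Cre recombinase knocked into the Nkx2.5 locus, which is active in cardiac progenitors and their descendants, so that other cells of the heart keep the gene. The 3 control samples are labelled only as controls, and the sources used here do not give their genotype. Nothing in the labels says whether replicates were separate embryos, litters or pools, so the p-values measure only how these samples vary, and that variation may be technical. Levels below are log2 intensities after background correction and quantile normalization. The levels of different probes are not compared with each other.

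Between 74.1% and 78.2% of spots were above background on each array, and 17727 probes entered the test. Dicer1 lay at 6.72 ± 0.03 in the mutants and 7.72 ± 0.10 in the controls (SD, n = 3 each, limma adjusted p = 0.036), and where its probe lies relative to the deleted part is not known here. The first principal component of the 6 arrays, with 54.1% of the variance, did not follow the groups: it placed controls 1 and 2 at 37.3 and 26.3 but control 3 at -20.8, between mutant 1 at -18.3 and mutant 2 at -30.1, with mutant 3 at 5.63. Cardiomyocyte markers were present, with 19 of 20 listed symbols tested.

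No respiratory chain or ATP synthase gene passed the test. Of the 65 tested members, limma called 0 at an adjusted p under 0.05, against 9 of all 17727 probes (0.0508%, with 0.0282% higher and 0.0226% lower), and 7 at an unadjusted p under 0.05. Of those 7, 6 were higher in the mutant (9.23% of the members, against 6.75% of all probes) and 1 was lower (1.54%, against 3.26%). The groups did not overlap in 9 members that were higher (13.8%, against 9.87% of all probes) and 1 that was lower (1.54%, against 5.27%). The median log2 difference, mutant minus control, was 0.12 over the members and 0.02 over all probes, and 51 of the 65 members lay above 0 (78.5%, against 53.3%). Brighter probes, with a mean level over 12, gave 45 higher and 16 lower of 437 at an unadjusted limma p under 0.05. Their groups did not overlap in 59 higher and 27 lower, and 59.5% lay above 0 (median 0.04). The 40 members at that level gave 4 and 0 at that p, 6 and 0 without overlap, and 85% above 0 (median 0.13). With cyclic loess in place of quantile normalization 38 of the 65 members lay above 0 (58.5%, median 0.04), where the median of all probes was -0.01. With the authors' normalized intensity 44 lay above 0 (67.7%, median 0.11), where the median of all probes was 0.01.

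The precision of the members' differences was close to that of other probes. Of the 62 members above background on all 6 arrays and not saturated on all of them, 58 had a 95% interval of the difference within a 2-fold change in either direction (93.5%, against 90.1% of all such probes), and 44 within a 1.5-fold change (71%, against 65.8%). The 4 that reached beyond 2-fold were Ndufa6, Uqcr10, Cox6b1 and Atp5a1. Uqcrh, Uqcrq and Cox7b2 were left out of these counts, since the first was saturated on all arrays and the others were at background on 3 arrays and on 1. Member differences ran from -0.62 for Cox7b2 to 0.85 for Ndufa6, and both ends moved with the processing or with 1 array. Cox7b2 gave -1.19 with the subtracted intensity and -0.39 without mutant 1, and Ndufa6 gave 0.53 without mutant 2 and 1.29 without control 3. A p that misses the threshold does not show that levels were equal.

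**Figure D1:**
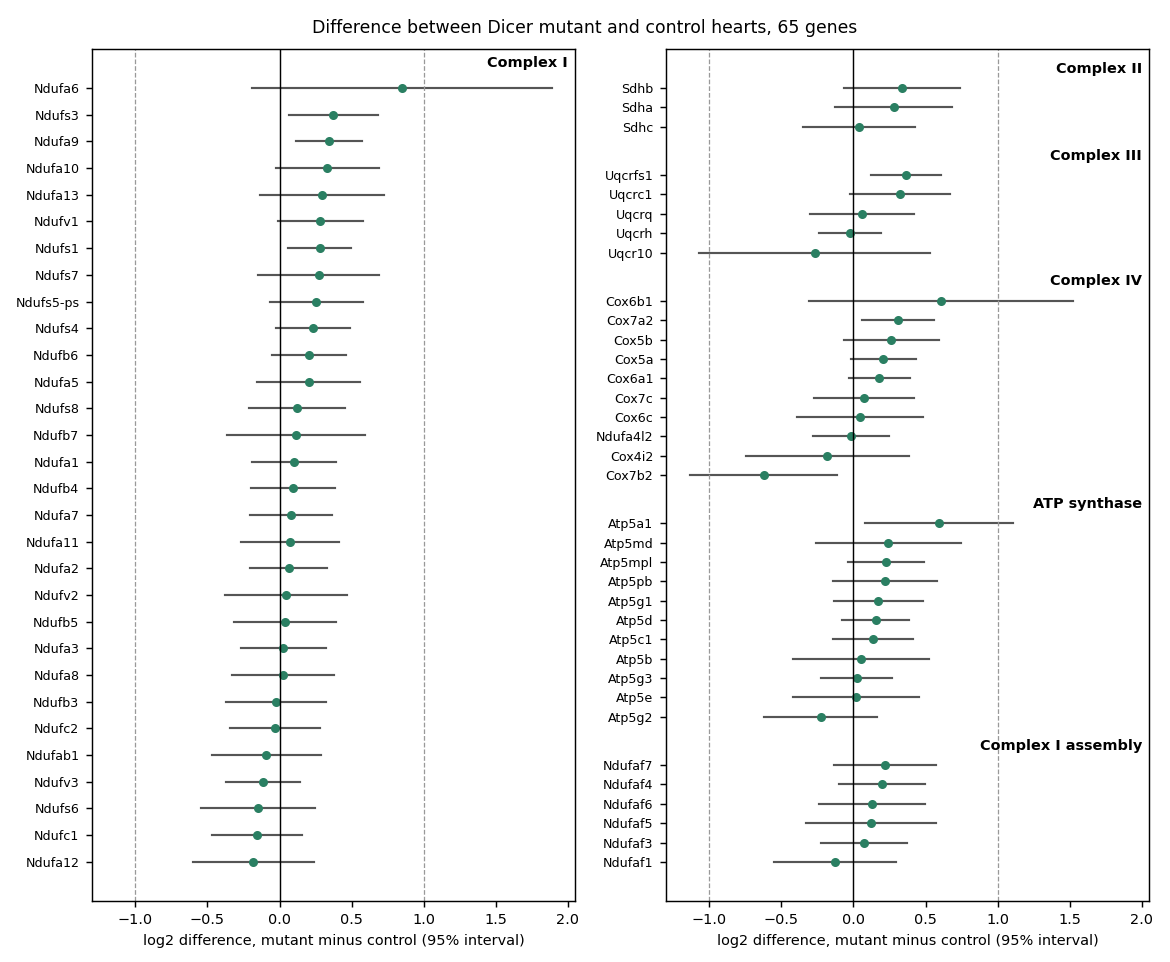
Log2 difference between mutant and control (points) with its 95% interval (bars) for the 65 tested members, by complex, with dashed lines at a 2-fold change. Most points lie to the right of 0; Uqcrh was saturated on all 6 arrays and Uqcrq at background on 3, so their intervals bound no change.

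In complex I, which oxidises NADH and is the largest complex of the chain, 23 of 30 genes lay above 0 with a median of 0.10, and none passed. The 6 core subunits tested, of the set that carries out the electron transfer, all lay above 0, with a median of 0.27 and a range from 0.04 to 0.37. Ndufs1, an iron-sulphur core subunit of the NADH-oxidising arm, read 10.44, 10.56 and 10.46 in mutants 1 to 3 and 10.23, 10.12 and 10.27 in controls 1 to 3. The lowest mutant was above the highest control by a small margin, and the difference was 0.28 ± 0.09 (SE, limma adjusted p = 0.376), or 1.21-fold. Ndufs3, a core subunit of the arm that reduces ubiquinone, read 11.75, 11.81 and 11.59 in the mutants, against 11.41, 11.12 and 11.50 in the controls. Its groups did not overlap either, and the difference was 0.37 ± 0.13 (adjusted p = 0.402), while its dimmer probe gave 0.18 with groups that overlapped. Ndufv1, the flavin-binding subunit that takes electrons from NADH, read 12.06, 12.44 and 12.39 in the mutants, against 11.995, 11.979 and 12.064 in the controls. Mutant 1 lay within the range of the controls, and the difference was 0.28 ± 0.12 (adjusted p = 0.514).

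Among the 23 accessory subunits of complex I, which surround the core and support its assembly and stability, 16 lay above 0, with a median of 0.07. Ndufa9 read 12.46, 12.62 and 12.69 in the mutants, against 12.26, 12.22 and 12.26 in the controls. The controls were nearly equal (SD 0.02) with all mutants above them, and the difference of 0.34 ± 0.10 had the second smallest p of the members (unadjusted p = 0.0102, limma adjusted p = 0.306). Ndufa6 spread most: 8.26, 9.07 and 7.98 in the mutants against 7.20, 7.09 and 8.47 in the controls. Control 3 was higher there than mutants 1 and 3, and the difference of 0.85 had a 95% interval from -0.19 to 1.89. Ndufa12 gave -0.18, and -0.10 with its dimmer probe, but that value rests on mutant 2, without which it was 0.01. Ndufs5-ps gave 0.26 ± 0.14 (adjusted p = 0.57). Ndufab1, the mitochondrial acyl carrier protein that is also an accessory subunit, gave -0.09 with its brightest probe and 0.13 with the other.

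The 6 tested assembly factors, which help build complex I and are not part of the finished enzyme, gave differences from -0.13 to 0.22, with a median of 0.12, 5 of 6 above 0 and groups that overlapped in every case by the brightest probe. Ndufaf7 gave 0.22 ± 0.15 and Ndufaf4 0.20 ± 0.13, both with limma adjusted p over 0.6 (0.632 and 0.619). The dimmer probe of Ndufaf7 gave 0.14 ± 0.09, without overlap between the groups. Ndufaf6 gave 0.13 ± 0.15 and Ndufaf1 -0.13 ± 0.18.

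Complex II oxidises succinate and links the citric acid cycle to the chain. Its 3 tested genes lay above 0. Sdha, the flavoprotein that oxidises succinate, read 12.98, 13.22 and 13.32 in the mutants, against 12.59, 12.94 and 13.15 in the controls. Sdhb, the iron-sulphur subunit, read 12.83, 12.81 and 12.66 in the mutants, against 12.15, 12.36 and 12.78 in the controls. For both genes controls 1 and 2 lay below every mutant, while control 3 lay among the mutants. The differences were 0.28 ± 0.17 for Sdha (limma adjusted p = 0.602) and 0.34 ± 0.17 for Sdhb (adjusted p = 0.558). Sdhc, a membrane anchor, gave 0.04 ± 0.16, with its highest value, 11.85, in control 3.

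Complex III passes electrons from ubiquinol to cytochrome c. Uqcrfs1, the Rieske iron-sulphur protein, had the smallest p of all members (unadjusted p = 0.0102, limma adjusted p = 0.306). It read 12.63, 12.76 and 12.70 in the mutants, against 12.22, 12.29 and 12.48 in the controls, so the groups did not overlap, and the difference of 0.36 ± 0.10 corresponds to 1.29-fold. Uqcrc1, a core protein, read 8.42, 8.41 and 8.33 in the mutants, against 7.84, 7.98 and 8.36 in the controls. Control 3 again lay within the mutants' range (0.32 ± 0.14, adjusted p = 0.528). Uqcr10, a small subunit, went the other way in controls 1 and 2: 8.99 and 8.89 there, against 7.71 in control 3 and 8.22, 8.15 and 8.41 in the mutants. Its difference was -0.27 with a 95% interval from -1.07 to 0.53, and its dimmer probe gave -0.08. Uqcrq was above background on 3 arrays, mutants 1 and 2 and control 2, and gave 0.06. Uqcrh, the hinge protein, was saturated on all 6 arrays, so no fold is given for it.

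In complex IV, cytochrome c oxidase, 7 of 10 genes lay above 0 with a median of 0.13, and none passed. The groups did not overlap in 3 of the 10 on the higher side (against 9.87% of all probes), and the complexes were not tested against each other. Cox7a2, the widely expressed isoform of subunit 7a, read 14.09, 14.18 and 14.18 in the mutants, against 13.77, 13.75 and 14.00 in the controls. Its difference was 0.31 ± 0.10 (limma adjusted p = 0.385). Cox5a read 11.43, 11.19 and 11.31 in the mutants against 11.10, 11.09 and 11.12 in the controls, a difference of 0.21 ± 0.10 (adjusted p = 0.534) in which the controls were nearly equal. Cox6a1, the widely expressed isoform of subunit 6a, gave 0.18 ± 0.09 and was saturated on 1 array, mutant 1. Cox5b gave 0.26 ± 0.14 with groups that overlapped.

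Cox6b1, the widely expressed isoform of subunit 6b, showed how 1 array can set a difference. It read 13.48, 13.41 and 13.60 in the mutants; controls 1 and 2 were similar at 13.20 and 13.52, but control 3 was at 11.95, and the difference was 0.61 ± 0.38 with all arrays. Without control 3 it was 0.14. Cox7b2, an isoform of subunit 7b, was the only member whose mutants all lay below the controls, at 6.22, 6.76 and 7.08 against 7.37, 7.31 and 7.25. Its signal was dim, at background in mutant 1, and the difference was -0.62 ± 0.21 (limma adjusted p = 0.392). Without the offset, it was -1.19 ± 0.45 with the subtracted intensity and -1.21 ± 0.46 with the authors' normalized intensity. Cox4i2, the alternative isoform of subunit 4, gave -0.18 ± 0.24, or 0.02 without mutant 1, and Ndufa4l2 gave -0.02 ± 0.11. The muscle isoforms left out of the members gave -0.56 ± 0.14 for Cox6a2 (adjusted p = 0.262) and 0.23 ± 0.11 for Cox7a1 (adjusted p = 0.541), each without overlap between the groups.

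**Figure D2:**
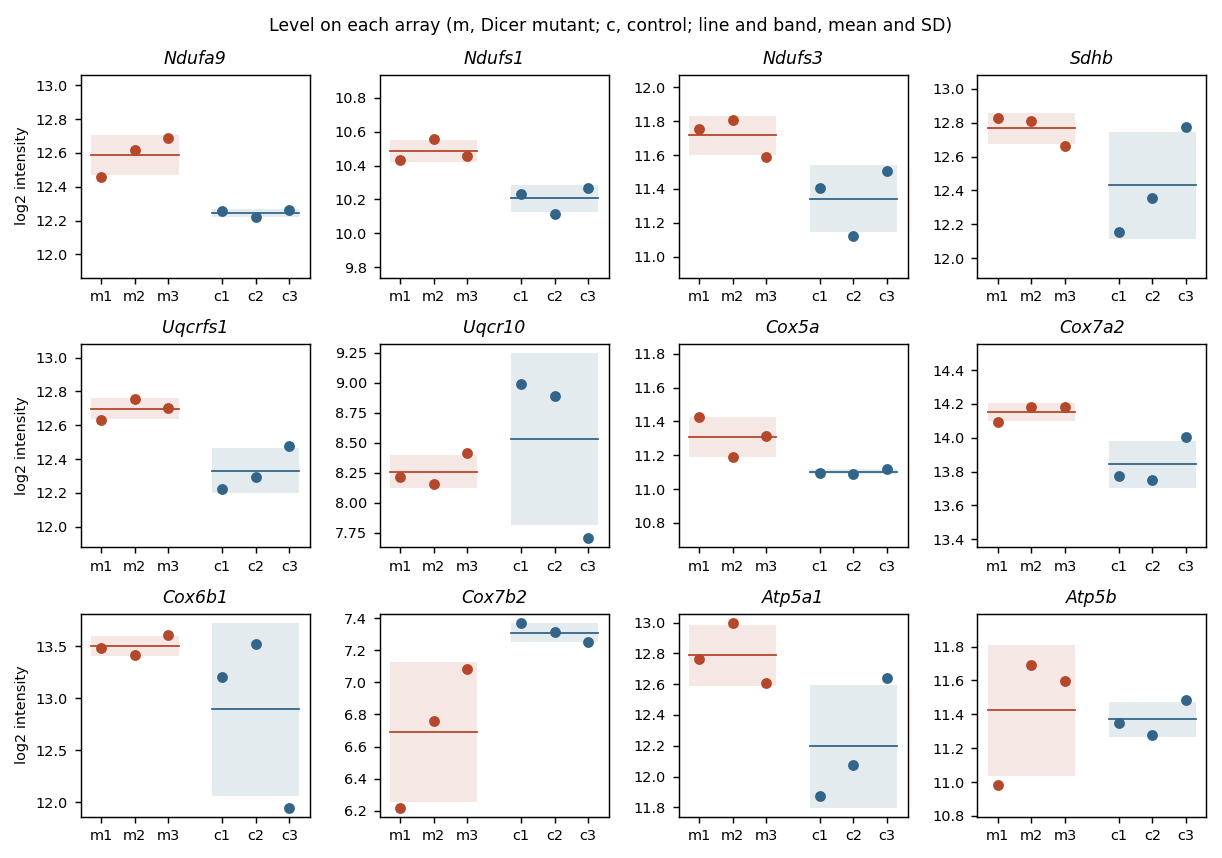
Log2 intensity of 12 members on each array (points), with the mean and SD of each group (line and band, n = 3); each panel has its own vertical range. In Ndufa9, Ndufs1, Ndufs3, Uqcrfs1, Cox5a and Cox7a2 the mutants lie above the controls, in Cox7b2 below them, and in Sdhb, Uqcr10, Cox6b1 and Atp5a1 control 3 stands away from controls 1 and 2.

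Of the 11 ATP synthase genes 10 lay above 0, with a median of 0.15. Atp5a1, the alpha subunit of the catalytic head, read 12.761, 12.999 and 12.607 in the mutants, against 11.87, 12.08 and 12.64 in the controls. Control 3 lay just above mutant 3 and far above the other controls, and the difference was 0.59 ± 0.21 (limma adjusted p = 0.423), or 1.51-fold. Atp5b, the catalytic beta subunit that pairs with it in the same ring, gave 0.05 ± 0.20, with mutant 1 the lowest of all arrays at 10.98 and the other 5 between 11.28 and 11.69. Without mutant 1, Atp5b gave 0.27 ± 0.11 and Atp5a1 0.61 ± 0.26. The 2 head subunits were not tested against each other. Of the membrane and stalk part, Atp5mpl, a small membrane subunit, was the 1 gene without overlap, at 14.14, 14.05 and 14.00 in the mutants, against 13.67, 13.86 and 13.98 in the controls (0.23 ± 0.11, adjusted p = 0.553). Atp5pb, the b subunit of the peripheral stalk, gave 0.22 ± 0.15, and Atp5d, the delta subunit of the central stalk, 0.15 ± 0.10.

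Atp5g1, Atp5g2 and Atp5g3 are 3 genes for the c subunit that forms the rotor ring. Their differences were 0.17 ± 0.13, -0.23 ± 0.16 and 0.02 ± 0.10 in that order, with limma adjusted p from 0.659 to 0.952. Atp5g2 was the only ATP synthase gene below 0, at 12.04, 12.29 and 12.53 in the mutants, against 12.44, 12.36 and 12.75 in the controls. The dimmer probe of Atp5g1 gave -0.08, and Atp5g3 was saturated on 1 array, control 3.

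The members' levels differed among the controls, and no member passed between the groups. After each gene was centred on its mean over the 6 arrays, the median over the 65 members was 0.02, 0.13 and 0.07 in mutants 1 to 3, and -0.17, -0.12 and 0.14 in controls 1 to 3. Controls 1 and 2 were thus the lowest arrays and control 3 the highest. Control 3 read above controls 1 and 2 in 54 of 65 members (83.1%, against 49.4% of all probes with a value on 6 arrays), in 28 of 30 genes of complex I and in 11 of 11 of the ATP synthase, but in 5 of 10 of complex IV and 2 of 5 of complex III. Control 1 was the lowest array in 32 members (49.2%, against 22.4%). All 3 mutants lay above both controls 1 and 2 in 35 members (53.8%, against 21.6%) and below both in 4 (6.15%, against 18.1%). These 2 controls were singled out as the members' lowest arrays, so those shares are a description and no separate support. With all 3 controls the mutants lay above in 13.8% of members (against 9.87%) and below in 1.54% (against 5.27%). The median SD of a member within the controls was 0.20, against 0.13 within the mutants, where all probes had 0.14 and 0.15.

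**Figure D3:**
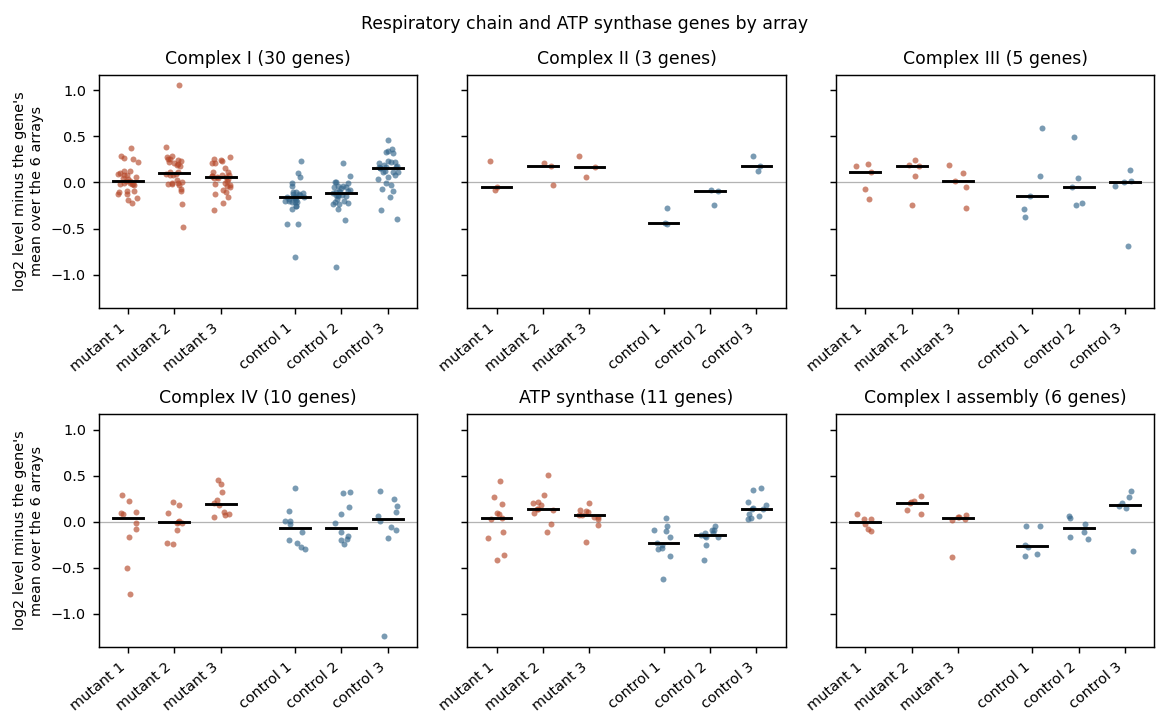
Log2 level of each tested member on each array minus that gene's mean over the 6 arrays (points), by complex, with the median (black bar). In complex I, complex II, the ATP synthase and the assembly factors the medians of controls 1 and 2 lie below 0 and that of control 3 near or above those of the mutants.

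Without control 3, which was left out because it stands apart from the other controls, limma called 320 of all probes, 119 higher (0.671%) and 201 lower (1.13%), but still 0 of the 65 members. The either-direction share was 1.81% of all probes. The members' median difference was 0.21, and 23 members were higher at an unadjusted p under 0.05 (35.4%, against 10.6% of all probes) and 3 lower (4.62%, against 10.4%). Control 3 was picked by its values, and the members' centred median was highest on it (0.14). Leaving it out therefore raises most members' differences, and these shares are a description and no separate support. The smallest adjusted p of a member was 0.0534, for Uqcr10 at -0.68 ± 0.12. Atp5a1 gave 0.82 ± 0.15 (limma adjusted p = 0.058) and Uqcrc1 0.47 ± 0.10 (adjusted p = 0.0779).

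If the code that opens each array title names a slide, it puts mutants 1 and 2 with control 1 and every other array on a slide of its own. With that slide as a block, only those 3 arrays inform the difference, so its control side is a single array, the lowest of the 6 in 32 members. The fit has 1 residual degree of freedom, and the lone control is assumed to vary like the other arrays. In that fit limma called 7.55% of all probes, and 2 members higher (3.08%, against 3.01% of all probes) and 1 lower (1.54%, against 4.54%). Atp5a1 gave 1.01 ± 0.16 (adjusted p = 0.0355), Sdhb 0.66 ± 0.12 (adjusted p = 0.0485) and Uqcr10 -0.81 ± 0.13 (adjusted p = 0.0363). When mutant 3 and control 3, which share a number in their titles, were both left out, 11 members passed higher (16.9%, against 11.8%) and 3 lower (4.62%, against 10.4%). The lower ones were Uqcr10, Cox7b2 and Cox4i2, and the higher ones included Atp5a1, Ndufa6, Sdhb, Uqcrc1, Uqcrfs1 and Ndufs3. The share of members called higher lay near that of all probes in the first of these fits and above it in the second. The share called lower lay below that of all probes in both. The second fit leaves out control 3, on which the members' centred median was highest (0.14). The first sets mutants 1 and 2 against control 1, the lowest array in 32 members. These shares are therefore a description and no separate support.

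Erythroid markers were highest in controls 1 and 2, where the members were lowest. Their median over 12 tested genes was 0.55 and 0.24 in controls 1 and 2, -0.22 in control 3, and 0.03, -0.27 and -0.06 in mutants 1 to 3. Of 12 such genes 0 passed, and their summed linear intensity, most of it from globin probes at or near the top of the scale, ranged from 116250 to 124570 in the mutants and from 123620 to 130720 in the controls. Cardiomyocyte markers gave medians of 0.02, 0.11 and -0.06 in the mutants, against -0.26, 0.03 and 0.34 in the controls, with 0 of 19 passing and sums from 245270 to 278600 and from 210830 to 275910. Probes with a mean level over 12, where 40 of the members lie, gave -0.10 and -0.05 in controls 1 and 2 and 0.06 in control 3, against -0.20, -0.10 and 0.13 for those 40 members. The part of cell composition and of signal range in the members' pattern was not tested. In bulk hearts, fewer cells of a type and less RNA per cell cannot be told apart.

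**Figure D4:**
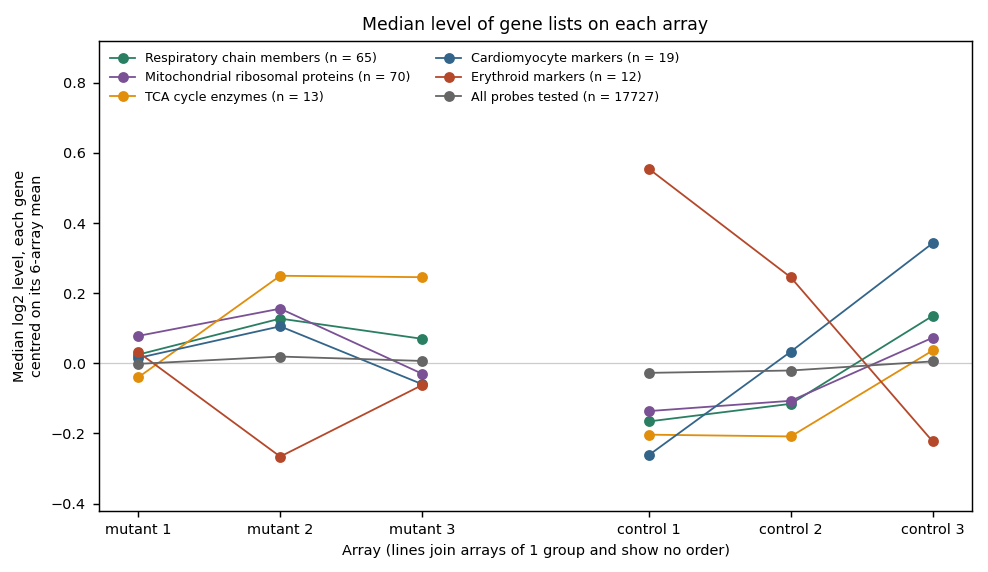
Median log2 level of 6 sets of genes on each array, each gene centred on its mean over the 6 arrays; lines join arrays of 1 group and show no order. The members, the mitochondrial ribosomal proteins and the TCA cycle enzymes are lowest in controls 1 and 2, where the erythroid markers are highest, at 0.55 and 0.24. The TCA cycle set includes subunits of pyruvate dehydrogenase.

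In the other marker lists 0 genes passed. The epicardial list was placed much like the erythroid one, with medians of 0.14 and 0.19 in controls 1 and 2, -0.12 in control 3, and -0.10, -0.13 and -0.11 in the mutants. The neural and neural crest list gave 0.25, 0.07 and -0.13 in controls 1 to 3. Over the groups, the cushion mesenchyme difference was of about the size of the erythroid one, whose median was -0.29. Endothelial and endocardial genes had a median difference of -0.12 over 12 genes, cushion mesenchyme -0.32 over 14, epicardial -0.19 over 10, neural and neural crest -0.09 over 8, liver 0.05 over 6 and leukocyte and platelet 0.03 over 6. Summed intensities of the epicardial list did not overlap, at 8333 to 10194 in the mutants and 11322 to 15171 in the controls. Those of the endothelial list, 9120 to 11207 and 9368 to 10341, did. For control 3 the separation of the epicardial sums rests on Rspo1, which read 12.26 there. It read 11.27 and 11.73 in controls 1 and 2 and 10.76, 11.13 and 10.78 in mutants 1 to 3. The epicardial median in control 3 (-0.12) lay among those of the mutants.

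Other mitochondrial genes were read from the same fit, and none of them passed. Of 70 mitochondrial ribosomal proteins, which translate the subunits encoded in mitochondrial DNA, 53 lay above 0 with a median of 0.08, and Mrps31 and Mrpl37 gave 0.40 each (limma adjusted p = 0.262 and 0.313). Of 13 genes listed for the TCA cycle, subunits of pyruvate dehydrogenase included, 11 lay above 0 with a median of 0.29. The smallest p were those of Dlat, a subunit of pyruvate dehydrogenase, at 0.53 ± 0.18, and Mdh2, mitochondrial malate dehydrogenase, at 0.45 ± 0.16. Of 15 electron carriers and transporters 9 lay above 0 with a median of 0.14. Aifm1, a flavoprotein of the intermembrane space, gave 0.53 ± 0.14, and Cyc1, cytochrome c1 of complex III, which the symbol rule does not catch, gave 0.48 ± 0.17.

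Assembly factors of the other complexes and further ones of complex I gave a median of 0.09 over 26 genes, 16 of them above 0. The groups did not overlap in 6 that were higher and 4 that were lower (against 9.87% and 5.27% of all probes). At an unadjusted limma p under 0.05, 5 were higher and 2 lower (against 6.75% and 3.26%). Atpaf1, a chaperone for the F1 head of the ATP synthase, read 9.79, 10.02 and 9.94 in the mutants, against 8.65, 8.67 and 9.14 in the controls. All mutants lay clearly above all controls, and the difference of 1.10 ± 0.15 was the largest of the pathway lists, with a limma adjusted p of 0.109. Sdhaf4, an assembly factor of complex II, gave 0.58 ± 0.16 (adjusted p = 0.291).

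Regulators and genes of mitochondrial DNA expression gave a median of 0.12 over 22 genes, 17 above 0, and none passed. Ppargc1b, a coactivator of mitochondrial genes, read 9.92, 10.23 and 10.84 in the mutants, against 9.38, 9.47 and 9.53 in the controls (0.87 ± 0.23, limma adjusted p = 0.267). The orphan receptor Esrrg gave 0.49 ± 0.15, also without overlap. Tfam, which packages mitochondrial DNA and supports its transcription, gave 0.01 ± 0.14. The transcription factors Nrf1 and Gabpa gave 0.08 ± 0.08 and -0.07 ± 0.08, small differences although neither gene's groups overlapped.

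NRF1 and the ETS factor GABP, whose DNA-binding subunit is Gabpa, are known activators of many nuclear respiratory chain genes, and the promoters of members were read for the letters they bind. RefSeq promoters on GRCm38.p6, each 250 bases before to 50 after the start, were held for 55 of the 67 genes, with 59 promoters in all. On either strand, the NRF1 core GCATGCGC was in 9 of them (15.3%), against 4.17% of the promoters of genes with a tested probe and 2.71% of all promoters. The ETS letters CCGGAAG were in 12 (20.3%, against 13.3% and 8.86%) and the YY1 letters AAGATGG in 9 (15.3%, against 6.55% and 6.34%). In the palindrome around the NRF1 core the match is found on both strands, and such a promoter was counted once. A match is a description of these letters and not a bound site. The following stretches lie before the start of 6 members described above and show the match in capitals, 5′ to 3′ on the gene's strand: the NRF1 core in the first 4 and the ETS letters, or their reverse complement CTTCCGG, in the others. Their genes are on both sides of 0, with Atp5g2 at -0.23 and Sdhb at 0.34.
Sdhb (chr4:140961193-140961248, plus strand): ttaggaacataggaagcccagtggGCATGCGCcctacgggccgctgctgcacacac
Cox6a1 (chr5:115349087-115349142, minus strand): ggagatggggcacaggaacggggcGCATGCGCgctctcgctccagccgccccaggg
Atp5g2 (chr15:102671056-102671111, minus strand): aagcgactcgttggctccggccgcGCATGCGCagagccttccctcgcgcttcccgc
Ndufaf4 (chr4:24897948-24898003, plus strand): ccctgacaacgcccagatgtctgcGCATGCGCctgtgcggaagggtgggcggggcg
Ndufs3 (chr2:90904722-90904772, minus strand): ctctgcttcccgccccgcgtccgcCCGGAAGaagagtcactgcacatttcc
Cox6b1 (chr7:30626115-30626166, minus strand): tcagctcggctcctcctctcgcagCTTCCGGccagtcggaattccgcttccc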

How the data were processed

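Per the file headers, the deposited scanner files give for each spot a mean intensity, the median background intensity around it, their difference, a normalized intensity and a quality flag. By their values, the authors' normalized intensity is the subtracted intensity divided by a constant for each array (66.1 to 82.8), and the deposited series table repeats it for spots flagged good. Scanner software was not given in the sources used here. Masked spots were set to missing. The spot means were corrected by normexp with offset 50 (limma 3.58.1, R 4.3.3), log2-transformed and quantile-normalized over the 21880 spots listed with a gene. The other 14347 spots entered only the background correction. Probes whose flag put them over background on 3 or more arrays, in any group, were fitted with lmFit and eBayes (two-sided, no block). Benjamini-Hochberg adjustment covered the 17727 probes, and passing means an adjusted p below 0.05. Probes listed with several genes (204 before the filter) named no gene. The offset pulls differences of dim probes towards 0, and 3 arrays a group limit the precision. The code was tested on simulated data.

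Members, lists and tests were chosen with earlier results of these data known. The rule for named genes took up to 4 members with the smallest p from each of complexes I, III, IV, the ATP synthase and the assembly factors, all of complex II, set core subunits and isoform families, the pseudogene symbol, and the 2 genes with the smallest p of each other mitochondrial list. Ndufa6, Ndufa12, Ndufab1, Uqcrh, Tfam, Nrf1 and Gabpa fall outside that rule and were picked with their values in view. All 67 members matched RefSeq (GRCm38.p6) by gene number. Replicates are numbered by accession. Alternatives varied the background correction, normalization, filter, blocks, probes per gene and arrays left out.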

Additional observations from a re-analysis of the deposited data

How the results depend on the processing

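Of 21 alternatives, 20 were planned with earlier results of these data known. The other, quantile normalization over all spots, was chosen after seeing the data. Across all of them, 25 of 32 named members kept their sign and 30 of 666 values changed sign, none of them passing. The count of members that passed, 0, was 3 with the inferred slide as a block and 14 without mutant 3 and control 3, and stayed 0 with any single array left out. The members' median difference, 0.12, was 0.25 with the slide block and 0.04 to 0.21 with single arrays left out. The count of all probes that passed, 9, was 5 with the subtracted intensity, 4 with the authors' normalized intensity, 1338 with the slide block, 0 to 320 with single arrays left out, 0 without mutant 1 and control 1, 0 without mutant 2 and control 2, and 3921 without mutant 3 and control 3. With the title number, which a mutant and a control share, as a replicate block, limma called 0 probes (1322 at an unadjusted p under 0.05) and 0 members, and the members' median stayed 0.12. Deviations of arrays with the same number had correlations of 0.01, -0.48 and -0.38, and those of other combinations ran from -0.50 to 0.56. With 3 arrays a group these correlations depend on each other and cannot show whether arrays were paired. The labels do not state pairs, and the main fit used none. The cause of these changes was not tested.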
